A study of Mus musculus with 4 samples.

Results

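Complex I, the NADH:ubiquinone oxidoreductase of the mitochondrial inner membrane, is the entry point of the respiratory chain for electrons from NADH. It is an L-shaped enzyme: the matrix arm holds the flavin and the iron-sulphur clusters that carry electrons to ubiquinone, and the membrane arm pumps protons. Most of its subunits are encoded in the nucleus by genes whose symbols begin with Nduf, and those of the Ndufaf group encode assembly factors that help to build the enzyme and are not part of it. Autophagy, which removes damaged mitochondria among other cargo, depends on Atg7, an activating enzyme without which the ubiquitin-like Atg8 and Atg12 proteins are not conjugated.

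The Nduf transcripts were taken from an expression study of primary mouse aortic smooth muscle cells as every gene whose name in the array files starts with Nduf, on non-control probes. This gave 39 genes of 27827 gene names on the array, read by 61 of its 41174 probes. They were kept apart as 36 complex I subunits on 58 probes, 2 assembly factors (Ndufaf1 and Ndufaf2) on 2 probes, and Ndufa4, which carries an Nduf name and is now counted as a subunit of complex IV. The subunits were 7 core subunits of the matrix arm, 9 accessory subunits of the matrix arm, 19 accessory subunits of the membrane arm and Ndufab1, which sits in both arms. The 7 subunits encoded in mitochondrial DNA were not analysed here.

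The cells came from mice with the genotype Atg7F/F SM22α-Cre+, with both Atg7 alleles floxed, and from Atg7+/+ SM22α-Cre+ mice. Cre under the smooth muscle promoter SM22α was therefore present in both genotypes, and the strain is given as C57LB/6 in the labels. Culture medium was DMEM/F-12 plus serum (10% FBS), and RNA came from cells between passage 4 and passage 10. Each genotype had 2 biological replicates, called replicates 1 and 2 here, and the Atg7F/F and Atg7+/+ extracts of one number were hybridised together on 2 Agilent arrays with the dyes Cy5 and Cy3 exchanged. The labels do not say whether a replicate is one animal or a pool, so p-values concern only these 2 pairs of extracts. Their variance combines the spread between the pairs with a prior taken from all genes, which gives 2.18 of the 3.18 degrees of freedom. The design asks how transcript levels differ with the Atg7 genotype.

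In each channel of the 4 arrays, 43.3% to 45.5% of spots were well above background and 0 were saturated. A probe for Atg7 had a raw signal of 132 and 97.7 in the Atg7F/F extracts, against 283 and 297 in the Atg7+/+ extracts, and a mean log2 ratio of -1.22 ± 0.07 (SD, n = 2; limma adjusted p = 0.938). Where that probe lies relative to the floxed part of the gene was not given. Of 7 smooth muscle markers, 6 were measured above background, with a median log2 ratio of -0.16. Of these 6, Tagln and Acta2 were lower in Atg7F/F on all 4 arrays, as were 9.95% of all genes. Replicate ratios had opposite signs in 3 of the 6, Myh11 among them with 0.25 and -0.54, beside 54.5% of all genes. Of 8 endothelial markers, 7 were lower in Atg7F/F on all 4 arrays, beside those 9.95% of all genes, with a median of -0.43 over the list; their part in the results on Nduf genes was not tested. Fewer cells of a type and less RNA per cell cannot be told apart in such bulk samples.

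All 39 Nduf genes were measured. Of the 61 probes, 52 passed the filter, which asked that 1 genotype or both be well above background on every array, and all 52 were above background in all 8 channels. Of the other 9 probes, 8 were above background in no channel of any array, and each of them belonged to a gene that another probe measured. The brightest probe stood for each gene. Raw signals are mean intensities of a channel averaged over the 2 arrays of a pair on the log scale. Signals of different probes differ with the probe and are not compared between genes. Log2 ratios are Atg7F/F over Atg7+/+ after background correction and loess normalization, and a replicate's ratio is the mean of its 2 dye-swapped arrays.

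No difference between the genotypes in a complex I subunit passed the test. With limma's moderated test against 0 on the 2 replicate ratios, adjusted by Benjamini-Hochberg over all 12367 genes tested, 0 of 36 subunits had an adjusted p below 0.05, where 0% of all genes did. At an unadjusted p below 0.05 the subunits numbered 0 of 36, beside 2.98% of all genes, and their smallest unadjusted p was 0.144, for Ndufa11. The subunits had a median log2 ratio of -0.028, beside 0.0034 over all genes, and single subunits ranged between -0.33 for Ndufa11 and 0.20 for Ndufa13. Of the 36, 13 had a mean ratio above 0 and 23 below 0, where 51.4% of all genes were above and 48.6% below. With median centring in place of loess, 28 were above and 8 below. The subunit median was then 0.064, and the median of all genes was also higher, at 0.042. A mean ratio of at least 0.2 in size was found for 2 of 36 subunits, against 15.5% of all genes.

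The limits of each estimate were wide for a pair of replicates. The 95% intervals of all 36 subunits held 0, with half-widths between 0.26 and 0.55 log2 units and a median of 0.28. The lowest bound was -0.85 for Ndufa11 and the highest 0.71 for Ndufa13, so that differences up to those sizes were not resolved for these genes. The ratios of replicates 1 and 2 had opposite signs in 18 of 36 subunits, against 54.5% of all genes.

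**Figure D1:**
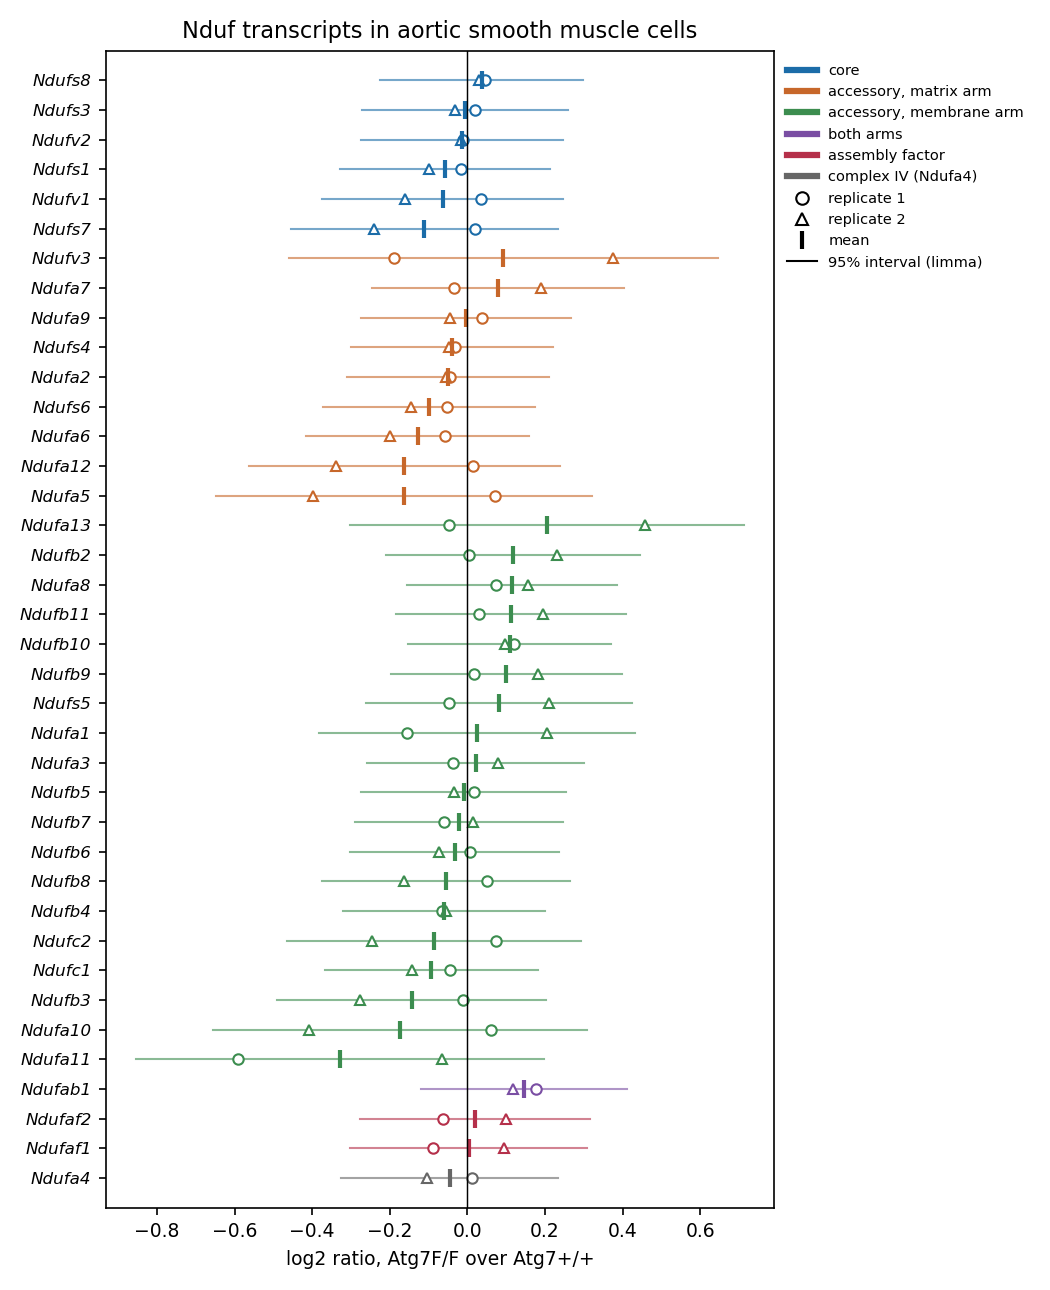
Log2 ratio of Atg7F/F over Atg7+/+ (x axis) for the Nduf genes (y axis), grouped by role. Circles are replicate 1, triangles replicate 2, thick ticks their mean and lines the 95% interval of the limma fit; all intervals shown cross 0, and Ndufa11 and Ndufa13 lie at the ends of the range.

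The core subunits carry the redox groups of the matrix arm. The 7 had a median log2 ratio of -0.057, and 6 of 7 means were below 0, beside 48.6% of all genes. With median centring in place of loess 1 of 7 was below 0, where the median of all genes was 0.042. None of the 7 was higher or lower on all 4 arrays, with 10.6% of all genes higher and 9.95% lower on all 4. The larger dye difference of the subunits, given below, gives small ratios opposite signs and so lowers such counts.

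Ndufs7, which holds the last iron-sulphur cluster before ubiquinone, had a raw signal of 9085 and 8259 in Atg7F/F, against 8851 and 10130 in Atg7+/+. Only replicate 2 was lower in Atg7F/F: the log2 ratios were 0.02 and -0.24, a mean of -0.11 ± 0.18 (SD, n = 2; unadjusted p = 0.390, limma). This was the lowest mean of the core group.

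Ndufv1, which binds NADH and the flavin, had a raw signal of 8630 and 7683 in Atg7F/F, against 8323 and 8953 in Atg7+/+. Its log2 ratios of 0.03 and -0.16 had opposite signs. Ndufs1, the large iron-sulphur subunit of the NADH dehydrogenase part, had 4013 and 3466 in Atg7F/F, against 4004 and 3937 in Atg7+/+. Its log2 ratios were -0.016 and -0.10, and the highest of the 4 extracts was an Atg7F/F one.

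Ndufs3, a subunit near the ubiquinone site, had 1582 and 1454 in Atg7F/F, against 1541 and 1601 in Atg7+/+. Ndufs8, which carries 2 iron-sulphur clusters, had 639 and 593 in Atg7F/F, against 613 and 628 in Atg7+/+, and was the core subunit of highest mean log2 ratio, at 0.037. The genotypes overlapped in both, and for Ndufs8 the Atg7F/F extracts were the highest and the lowest of the 4. Ndufv2, an iron-sulphur partner of Ndufv1, had a raw signal of 107 and 94.9 in Atg7F/F, against 108 and 96.5 in Atg7+/+. Its log2 ratios were -0.012 and -0.015. This signal was dim: an Ndufv2 probe above background on no array had 69.8 and 66.7 in Atg7F/F. The offset of the background correction pulls ratios of dim spots towards 0, so the size of a difference in Ndufv2 was not resolved. The mean was -0.037 with an offset of 0 and -0.05 with the processed signals of the software. It was -0.013 with no background subtraction and 0.0011 with median centring.

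**Figure D2:**
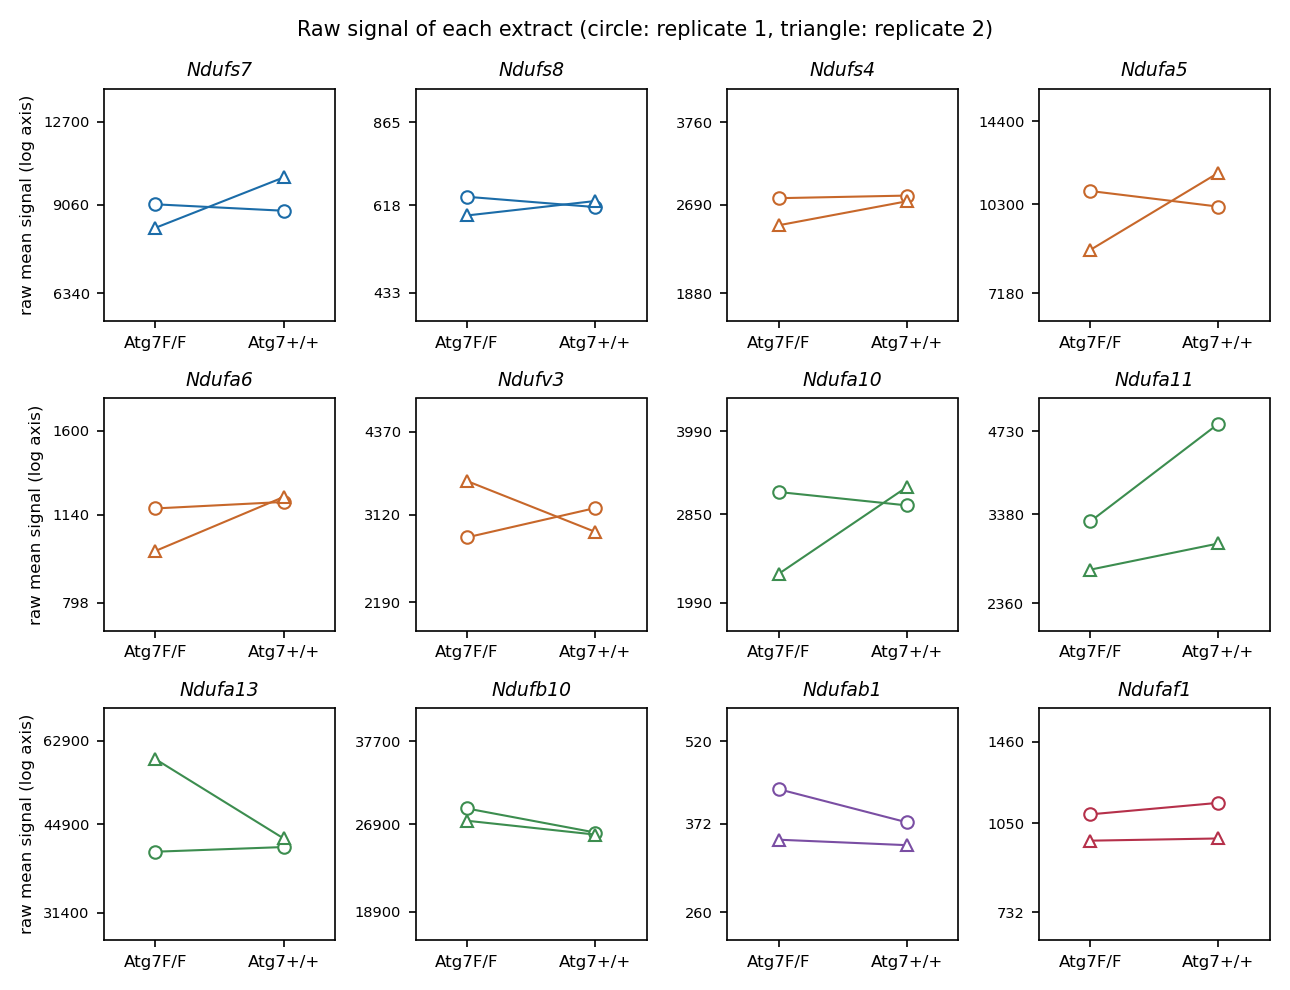
Raw mean signal of each extract (y axis, log scale, its own range for each gene) in Atg7F/F and Atg7+/+ for 12 Nduf genes; lines join the extracts hybridised together, circles replicate 1 and triangles replicate 2. The lines slope in opposite directions for Ndufa5, Ndufv3, Ndufa10 and Ndufa13, and in one direction for Ndufa11, Ndufb10 and Ndufab1.

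The accessory subunits of the matrix arm surround the core and include proteins needed for the arm to be stable. The 9 had a median log2 ratio of -0.05, with 7 of 9 means below 0, beside 48.6% of all genes. With median centring, which put the median of all genes at 0.042, 3 of 9 were below 0. As reported, 0 of 9 had one sign on all 4 arrays, a count that the dye difference of the subunits also lowers. Opposite replicate signs were found in 5 of the 9.

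Ndufa6, a protein of the LYR family that binds Ndufab1, had the smallest unadjusted p of the 9. Its raw signal was 1169 and 984 in Atg7F/F, against 1200 and 1224 in Atg7+/+. Both Atg7F/F extracts lay below both Atg7+/+ extracts, as in 9.15% of all genes. The log2 ratios were -0.06 and -0.20, a mean of -0.13 ± 0.10 (SD, n = 2; unadjusted p = 0.258, limma), and the array of replicate 1 with Atg7F/F in Cy5 gave 0.026. Ndufs6, a zinc-binding subunit, had 6503 and 6326 in Atg7F/F, against 6656 and 7314 in Atg7+/+, again without overlap. Its mean log2 ratio was -0.10 ± 0.07 (SD, n = 2; unadjusted p = 0.343, limma).

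Ndufa5, an accessory subunit of the ubiquinone part of the arm, differed between the replicates. Its raw signal was 10865 and 8557 in Atg7F/F, against 10199 and 11698 in Atg7+/+. The log2 ratio was 0.07 in replicate 1 and -0.40 in replicate 2, a mean of -0.16 ± 0.33 (SD, n = 2; unadjusted p = 0.370, limma).

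Ndufv3, a small accessory subunit beside Ndufv1 and Ndufv2, split the other way. It had 2848 and 3577 in Atg7F/F, against 3207 and 2912 in Atg7+/+, with log2 ratios of -0.19 and 0.37. Its mean of 0.09 ± 0.40 (SD, n = 2; unadjusted p = 0.638, limma) was the highest of these 9. Its other 2 probes past the filter gave means of -0.07 and -0.045, so its direction depended on the probe. Its 95% interval had the largest half-width of all subunits, 0.55. Ndufa7, another accessory subunit of the arm, had 13236 and 16435 in Atg7F/F, against 13397 and 14732 in Atg7+/+, with log2 ratios of -0.034 and 0.19.

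Ndufs4, whose loss in mice causes a fatal encephalomyopathy, had 2763 and 2476 in Atg7F/F, against 2792 and 2728 in Atg7+/+. The extracts overlapped, and the log2 ratios of -0.032 and -0.047 gave a mean of -0.039 ± 0.010 (SD, n = 2) with a 95% interval between -0.30 and 0.22. The remaining matrix arm subunits, Ndufa2 and Ndufa9, had mean log2 ratios of -0.05 and -0.0037.

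Ndufa12 takes the place of the assembly factor Ndufaf2 late in the building of the matrix arm. Its 3 probes are printed because the 2 that were measured gave different answers in replicate 2. All lie on the plus strand of chromosome 10 of mm9, the build of the array files. Junction probes 1 and 2 hold 60 bases each over a span of 3315 bases, chr10:93662740-93666054 and chr10:93662720-93666034, so each joins separate stretches of the genome, as across an intron. The probe called unspliced here lies in one stretch downstream, chr10:93683562-93683621. The name means only that the probe spans no gap in the genome, and whether it reads spliced or unspliced RNA was not tested. Capitals mark the 40 bases that the junction probes share.
Ndufa12 junction probe 1: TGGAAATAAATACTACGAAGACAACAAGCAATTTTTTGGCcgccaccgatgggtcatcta
Ndufa12 junction probe 2: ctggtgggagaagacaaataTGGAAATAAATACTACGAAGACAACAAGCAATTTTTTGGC
Ndufa12 unspliced probe: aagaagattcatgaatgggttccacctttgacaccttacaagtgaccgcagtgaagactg

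The unspliced probe, the brightest, had a raw signal of 9451 and 7476 in Atg7F/F, against 9247 and 9856 in Atg7+/+. Its log2 ratios were 0.014 in replicate 1 and -0.34 in replicate 2, a mean of -0.16 ± 0.25 (SD, n = 2; unadjusted p = 0.296, limma). Junction probe 1 gave 0.0042 in replicate 1 and 0.31 in replicate 2, so that the probes were alike in replicate 1 and 0.64 log2 units apart in replicate 2. Junction probe 2, which starts upstream of junction probe 1, was above background on none of the 4 arrays in either genotype (not well above background). The direction of Ndufa12 in replicate 2 therefore depended on the probe.

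Several probes passed the filter for 10 of the 39 genes, and the mean ratios of a gene's probes differed by between 0.0093 and 0.32 log2 units. The widest gaps after Ndufa12 were 0.20 for Ndufb8 and 0.16 for Ndufv3. For Ndufb8 the brightest probe had a mean of -0.06 and the other 0.14. The other probe was far dimmer, with raw signals in Atg7F/F of 197 and 221, against 23621 and 22961. In 8 of the 10 genes the probes' means lay on both sides of 0, so that the sign of the gene rested on the probe chosen. Some of these means were almost 0, such as -0.0020 for a probe of Ndufab1 and -0.0053 for one of Ndufa7. That Ndufab1 probe was dim, with 115 and 99.8 in Atg7F/F, and the offset pulls such ratios towards 0. The other probes of Ndufa3 (183 and 158) and Ndufc1 (202 and 199) were dim as well, so their signs are not equal readings. The exceptions were Ndufa11, with means of -0.33 and -0.29, and Ndufs6, whose 3 probes lay within 0.0093 of each other. Probes of both these genes overlap in position, so they are not separate readings of the transcript. No gene had probes whose means differed by 0.5 or more.

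**Figure D3:**
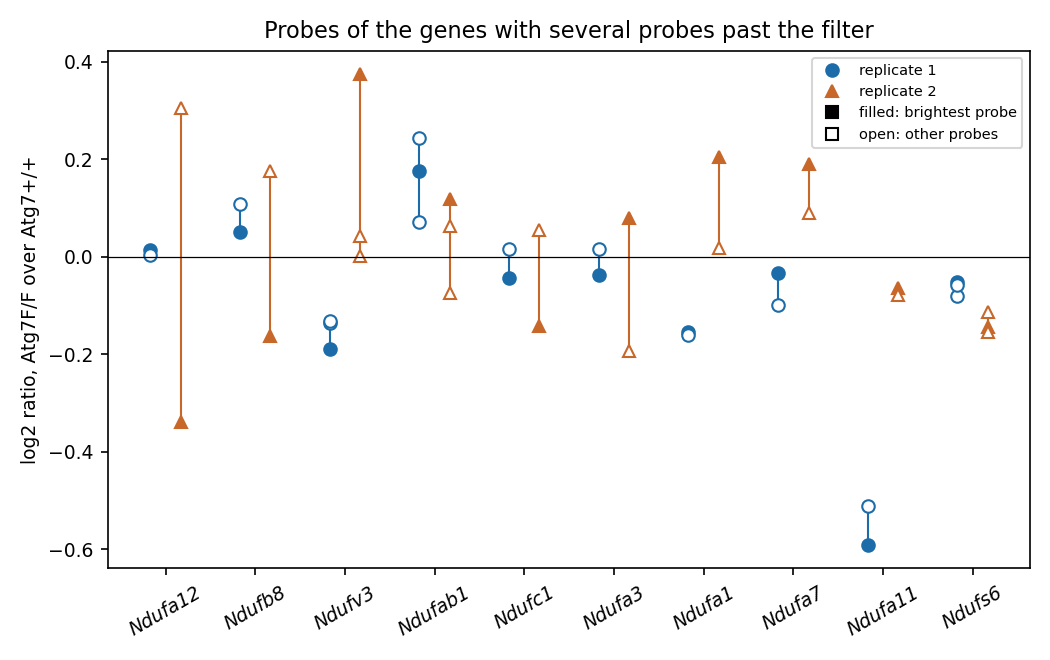
Log2 ratios of Atg7F/F over Atg7+/+ (y axis) of each probe past the filter for the 10 Nduf genes with several (x axis), in replicate 1 (blue circles) and replicate 2 (orange triangles); filled symbols are the brightest probe and lines join the probes of a replicate. The probes of Ndufa12 lie 0.64 apart in replicate 2, while those of Ndufa11 and Ndufs6 lie together.

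The membrane arm accessory subunits border the proton-pumping core, which mitochondrial DNA encodes. The 19 had a median log2 ratio of -0.0094, with 9 means above 0 and 10 below 0. With median centring, where the median of all genes was 0.042, 15 were above and 4 below. Replicate signs were opposite in 10 of the 19. Both ends of the range of all subunits fell in this group.

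Ndufa11, which lies where complex I meets complex III in the respiratory supercomplex, had a raw signal of 3284 and 2702 in Atg7F/F, against 4879 and 3004 in Atg7+/+. The Atg7F/F extract was the lower in both pairs, yet the genotypes overlapped, because replicate 1 was the brighter pair. Its log2 ratios were -0.59 and -0.06, a mean of -0.33 ± 0.37 (SD, n = 2; unadjusted p = 0.144, adjusted p = 1.00, limma). The 4 arrays gave -0.34 and -0.84 in replicate 1, and 0.13 and -0.26 in replicate 2, each pair with Atg7F/F in Cy5 before Atg7F/F in Cy3. The low mean thus came mainly from replicate 1. The probe lies at chr17:56857241-56857300 on the plus strand.

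Ndufa13, also known as Grim19 and described as a cell death regulator, had the highest mean. Its raw signal was 40170 and 58443 in Atg7F/F, against 40937 and 42383 in Atg7+/+. The Atg7F/F extract of replicate 2 was the highest of the 4 and that of replicate 1 the lowest. The log2 ratios were -0.05 and 0.46, a mean of 0.20 ± 0.36 (SD, n = 2; unadjusted p = 0.298, limma). The probe lies at chr8:72418102-72418161 on the minus strand.

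Ndufa10, a subunit related to nucleoside kinases, had 3119 and 2239 in Atg7F/F, against 2955 and 3182 in Atg7+/+. Replicate 2 held the lowest extract and the log2 ratios were 0.06 and -0.41, a mean of -0.17 ± 0.33 (SD, n = 2; unadjusted p = 0.343, limma). Ndufb3, of the distal part of the arm, had 5967 and 5218 in Atg7F/F, against 5948 and 6623 in Atg7+/+. Its log2 ratios were -0.012 and -0.28, both below 0, and its extracts overlapped by a narrow margin in replicate 1.

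Small ratios above 0 in both replicates were found for Ndufb10 and Ndufa8, CHCH-domain subunits on the side of the intermembrane space. Ndufb10 had a raw signal of 28696 and 27305 in Atg7F/F, against 26033 and 25817 in Atg7+/+, without overlap, as for 20.6% of all genes in either direction. Its log2 ratios were 0.12 and 0.10, a mean of 0.11 ± 0.02 (SD, n = 2; unadjusted p = 0.284, limma). On single arrays Ndufb10 gave 0.23 and 0.18 with Atg7F/F in Cy5, but 0.012 and 0.018 with Atg7F/F in Cy3. Ndufa8 gave 0.12 and 0.25 with Atg7F/F in Cy5, and 0.023 and 0.065 with Atg7F/F in Cy3. Its raw signal was 2091 and 1804 in Atg7F/F, against 1963 and 1725 in Atg7+/+. The pairs differed in brightness and the genotypes overlapped, while the log2 ratios of 0.07 and 0.16 were both above 0 (mean 0.12 ± 0.06, SD, n = 2; unadjusted p = 0.276, limma). Ndufb2, with the second highest mean of these 19 at 0.12, had 11286 and 14190 in Atg7F/F, against 11128 and 12425 in Atg7+/+, and log2 ratios of 0.0030 and 0.23.

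Ndufb4 was the 1 of 36 subunits that was lower in Atg7F/F on all 4 arrays, against 9.95% of all genes. Its raw signal was 12396 and 13354 in Atg7F/F, against 12815 and 14263 in Atg7+/+, so that both pairs had the lower signal in Atg7F/F but the genotypes overlapped. The log2 ratios were -0.07 and -0.05. The 3 of 36 subunits higher on all 4 arrays, against 10.6% of all genes, were Ndufa8, Ndufb10 and Ndufab1. Neither share stood above that of all genes. A dye difference gives small ratios opposite signs, and its median was 0.18 log2 units over the subunits, beside 0.024 over all genes. So these counts do not show whether the subunits differ from all genes.

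Ndufab1 is the mitochondrial acyl carrier protein, which also serves fatty acid synthesis and iron-sulphur cluster assembly and is bound in both arms of complex I. Its brightest probe had a raw signal of 428 and 349 in Atg7F/F, against 374 and 341 in Atg7+/+. Both pairs were higher in Atg7F/F, but the second Atg7F/F extract lay below the first Atg7+/+ extract. The log2 ratios were 0.18 and 0.12, a mean of 0.15 ± 0.04 (SD, n = 2; unadjusted p = 0.181, limma), with a 95% interval between -0.12 and 0.41. The means of its 3 probes ranged between -0.0020, for the dimmest of the 3, and 0.15.

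Across the 36 subunits, the raw signals of the genotypes did not overlap for 6, beside 20.6% of all genes. Both Atg7F/F extracts were above both Atg7+/+ extracts for Ndufb9, Ndufb10 and Ndufb11, and below them for Ndufa6, Ndufs6 and Ndufc1. The median log2 ratio of raw signals, with no background correction or normalization, was 0.012 in replicate 1 and -0.12 in replicate 2 for the subunits, beside 0.019 and -0.05 for all genes. After normalization the medians of the subunits were -0.0043 and -0.05.

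The ratios of the subunits moved with the dye. The median difference between the dye orientations of a pair was 0.18 log2 units over the subunits and 0.024 over all genes. On arrays with Atg7F/F in Cy5 the median log2 ratio of the 36 subunits was 0.06 in replicate 1 and 0.05 in replicate 2. On arrays with Atg7F/F in Cy3 it was -0.08 and -0.07, while the median of all genes lay between -0.010 and 0.014 on every array. In 30 of 36 subunits, 83.3%, the ratio was higher with Atg7F/F in Cy5 in both pairs, against 44.2% of all genes, while Ndufv1, Ndufa7 and Ndufb4 were among those that ran the other way in both pairs. Averaging the 2 arrays of a pair cancels a dye effect of equal size, and all means given here are such averages.

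**Figure D4:**
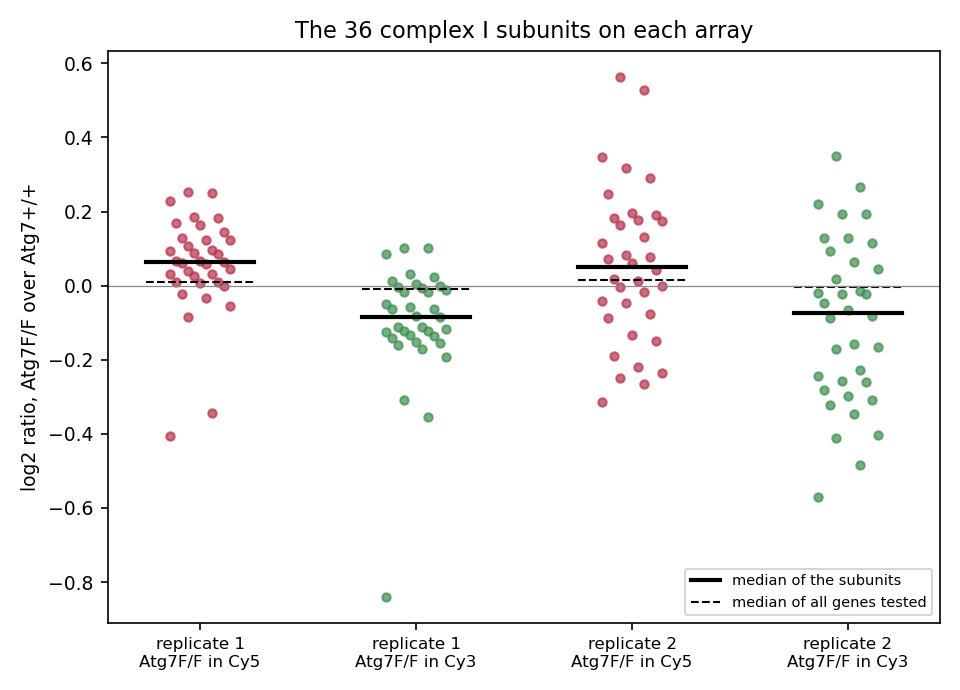
Log2 ratio of Atg7F/F over Atg7+/+ (y axis) of the 36 subunits on each of the 4 arrays (x axis), after loess normalization; thick lines are medians of the subunits and dashed lines those of all genes tested. The medians lie above 0 on both arrays with Atg7F/F in Cy5 (0.06 and 0.05) and below 0 on both with Atg7F/F in Cy3 (-0.08 and -0.07).

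The replicates shared little of the pattern. Across the 36 subunits the ratios of the dye-swapped arrays correlated at r = 0.36 in replicate 1 and r = 0.74 in replicate 2, where the arrays of a pair share both extracts. Between the replicates r was -0.14 for the subunits and -0.10 for all 12367 genes; these are descriptions over genes, which are not independent. The spread of the subunits was 0.12 (SD over genes) in replicate 1 and 0.20 in replicate 2, beside 0.25 and 0.32 for all genes.

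**Figure D5:**
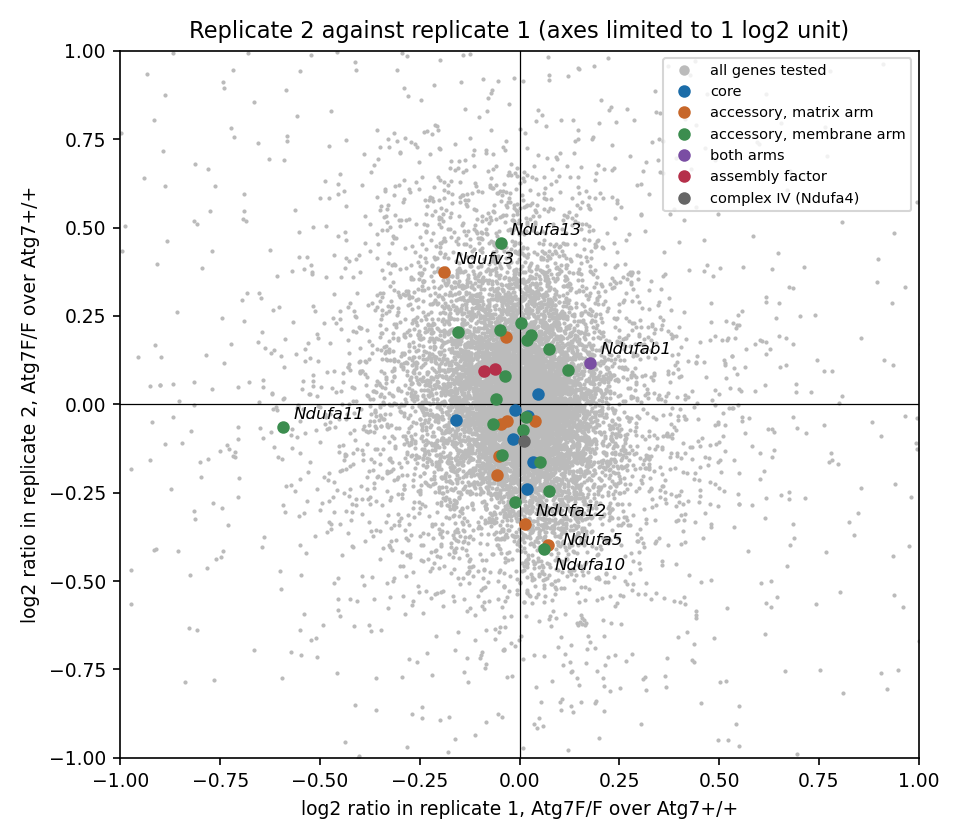
Log2 ratio of Atg7F/F over Atg7+/+ in replicate 2 (y axis) against replicate 1 (x axis) for the Nduf genes, coloured by role, and for all genes tested (grey); genes beyond 1 log2 unit are outside the axes. The Nduf genes lie within the cloud of all genes, with Ndufa11 low in replicate 1 and Ndufa5, Ndufa10 and Ndufa12 low in replicate 2.

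The assembly factors of the rule showed no difference that passed the test (0 of 2 at an adjusted p below 0.05, beside 0% of all genes). Ndufaf1, part of the complex that assembles the membrane arm, had a raw signal of 1088 and 978 in Atg7F/F, against 1140 and 987 in Atg7+/+. Ndufaf2, the matrix arm factor that Ndufa12 replaces, had 3929 and 3577 in Atg7F/F, against 4055 and 3522 in Atg7+/+. The genotypes overlapped in both. The log2 ratios were -0.09 and 0.09 for Ndufaf1 and -0.06 and 0.10 for Ndufaf2, with opposite signs in both genes and means of 0.0031 ± 0.13 and 0.019 ± 0.11 (SD, n = 2 each).

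4 further assembly factors were measured under older names in the files and so fell outside the rule. Ndufaf3 and Ndufaf4, which act on the ubiquinone part of the matrix arm, had mean log2 ratios of 0.07 and -0.029, and Ndufaf6, an early factor, had -0.05. Replicate signs were opposite in these 3. Ndufaf7, an arginine methyltransferase, had a raw signal of 1355 and 1465 in Atg7F/F, against 1136 and 1239 in Atg7+/+. The genotypes did not overlap, as for 20.6% of all genes in either direction. Its ratio was above 0 on all 4 arrays, as for 10.6% of all genes, with 0.24 and 0.34 in the replicates. The mean was 0.29 ± 0.07 (SD, n = 2, unadjusted p = 0.0425, adjusted p = 1.00, limma), where 2.98% of all genes had an unadjusted p below 0.05. A dimmer probe of Ndufaf7 that also passed the filter had a mean of 0.17, with -0.010 on the array of replicate 1 with Atg7F/F in Cy5.

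Ndufa4, counted with complex IV, had a raw signal of 4346 and 3569 in Atg7F/F, against 4256 and 4055 in Atg7+/+. Its log2 ratios of 0.012 and -0.10 had opposite signs, a mean of -0.05 ± 0.08 (SD, n = 2; unadjusted p = 0.648, limma).

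Of the assembly factors of complex I with other names, 12 of 13 were measured, with a median log2 ratio of -0.043, and 0 passed the test. Timmdc1, a membrane arm factor, stood apart: its raw signal was 1466 and 1018 in Atg7F/F, against 299 and 252 in Atg7+/+, a mean log2 ratio of 2.13 ± 0.25 (SD, n = 2; unadjusted p = 0.000362, adjusted p = 0.890, limma). Acad9, which works with Ndufaf1, had log2 ratios of -0.82 and -0.07, a mean of -0.45 ± 0.53 (SD, n = 2; unadjusted p = 0.136, limma). Nubpl, which delivers iron-sulphur clusters, and Dmac2 had means of 0.11 and -0.14.

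The other respiratory complexes were set beside the subunits by the same counts, with 0 genes past the test in each. The median log2 ratio was -0.06 over 7 genes of complex II, 0.023 over 9 subunits of complex III and -0.06 over 13 subunits of complex IV. Those of complex II include assembly factors and are not subunits alone. Single genes at an unadjusted p below 0.05 numbered 0, 0 and 1 in these lists, beside 2.98% of all genes, the 1 being Cox6a2, the muscle form of a complex IV subunit, with a mean log2 ratio of 0.45 ± 0.23 (SD, n = 2; unadjusted p = 0.0330, limma). The 11 measured regulators of mitochondrial biogenesis had a median of -0.042. An unadjusted p below 0.05 was found for 1 of 11, beside 2.98% of all genes: Polg, the mitochondrial DNA polymerase (mean log2 ratio -0.32 ± 0.05, SD, n = 2; unadjusted p = 0.0311, limma).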

How the data were processed

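The deposited scanner files hold mean and background intensity of each spot in Cy5 and Cy3, not normalized, together with processed intensity and a log10 ratio. Per the file headers, the authors' software was Agilent Feature Extraction, version 10.1.1.1. The value table they deposited holds log2 ratios that equalled those of the processed signals within 0.001 for 100% of probes, turned to Atg7F/F over Atg7+/+. Its column medians were 0.199, -0.094, 0.081 and -0.037.

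Mean intensities were corrected with normexp (offset 50, which pulls ratios of dim spots towards 0) and normalized by loess in limma 3.58.1 (R 4.3.3) (weight 0 for control spots). The dyes in the labels set the direction of each ratio, and dye swaps averaged, which gave n = 2. Of 41174 probes, 17109 passed the filter; 36 had a non-uniformity outlier. 25097 probes were named through RefSeq accessions, the others by the files, and 12367 genes were tested, each by its brightest probe. Ratios were tested against 0 with lmFit and eBayes (two-sided, 3.18 degrees of freedom, 2.18 from the prior, Benjamini-Hochberg, threshold 0.05). The number of arrays limits the precision.

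The extracts of one number share an array, so the pairing is part of the test. Deviations of same-numbered extracts correlated at 0.18 across genes. All 4 arrays lay on 1 slide. No mm9 annotation was used, so exons are not stated. The members, gene lists, tests and alternatives were chosen with earlier results of these data known. By rule, values were given for the 4 smallest p, 2 highest and 2 lowest means of each role, every assembly factor, Ndufa4, Ndufs4, Timmdc1, Atg7 and up to 4 genes of smallest p of other lists; Ndufb4's signals were added after its values were seen. For ATP synthase, 1 of 18 symbols was matched, and the list is not described (Atp5pb, mean log2 ratio -0.09). Fibroblast markers (6 of 6 measured) had median log2 ratios of -0.45 and 0.29 in replicates 1 and 2. Macrophage markers (3 of 6) had -0.43 and 0.23. Of the fibroblast markers 2, Cd34 (mean -0.69) and Dpt (-0.33), were lower on all 4 arrays, and 0 were higher. Of the macrophage markers 1 was lower on all 4, Cd68 (-0.37), and 1 was higher, Csf1r (0.16). Over all genes, 9.95% were lower and 10.6% higher on all 4. The code was tested on simulated data. Alternatives covered background, offset, normalization, filter, probe choice, prior, blocks and left-out replicates. Figures were drawn with matplotlib 3.10.9. 1 gene is counted but not reported here.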

Additional observations from a re-analysis of the deposited data

How the results depend on the processing

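Under every alternative that gave a test, 0 of 36 subunits (or 0 of their 49 probes) and 0 of 2 assembly factors had an adjusted p below 0.05 in limma. Genes called in the whole table numbered 0 in the test as reported, 9 with the 4 arrays and the pair as a random replicate block, 25 with the 4 arrays as independent and 1 with no replicate block; no Nduf gene was among them, while Timmdc1 (log2 ratio 2.13) and Atg7 (-1.22) were, with the arrays as independent. That fit counts dye swaps of the same extracts as separate samples. In every other alternative that gave a test 0 genes of the whole table passed, so the 0 for the subunits adds nothing there. With no replicate block the subunit median was the same by construction. At an unadjusted p below 0.05, 1 subunit (Ndufab1) was counted with no filter on dim probes and 1 with the arrays as independent.

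The subunit median of -0.028 lay between -0.06 and -0.023 under all alternatives on 4 arrays but median centring in place of loess, which gave 0.064, with 28 of 36 subunits above 0 and a median of all genes of 0.042. So the split of 13 above and 23 below 0 depended on the normalization. The subunit median lay below that of all genes after loess and above it with median centring. Subunits higher on all 4 arrays numbered 0 with raw mean signals and 0 with median centring. Those lower on all 4 numbered 2 with no background subtraction, 0 with raw signals, 0 with median centring, and 2 with every probe tested (of 49). Raw ratios keep the dye offset. Their median over all genes was 0.57 and 0.40 with Atg7F/F in Cy5, and -0.54 and -0.50 with Atg7F/F in Cy3. That offset gives small ratios opposite signs by dye, so the raw counts of 0 say nothing about the subunits. A dye difference of the subunits remained after loess, so the counts after loess are limited in the same way. It was not measured after median centring. Leaving out a replicate left no residual degrees of freedom and so no test; on the remaining 2 arrays the subunit median was between -0.046 and -0.0043, subunits higher on both numbered between 5 and 11, and lower on both between 5 and 13. The assembly factor median moved between -0.08 and 0.10 without a replicate.

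Of the 15 alternatives, 6 leave the brightest probe's ratio as it is and the deposited table repeats the processed signals, which leaves 8 that test a sign. Under those 8, 26 of 192 values for 24 named Nduf genes differed in sign from those reported. Ndufa11, Ndufa6 and Ndufb3 were below 0, and Ndufa8, Ndufb10, Ndufb2 and Ndufab1 above 0, under each of the 8. The named genes include the highest and lowest means of each role, which favours a lasting sign. The share of all genes that kept a sign was not counted. In replicate 1 alone Ndufb2 had 0.0030 and Ndufb3 -0.012, so both kept their sign narrowly. No named Nduf gene passed the adjusted test under an alternative that gave one. With 2 pairs of extracts and a variance drawn partly from all genes, the 95% half-widths were 0.26 log2 units or more.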
